A study of Mus musculus with 15 samples.

Results

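The 8 genes described here (Snap25, Stx1a, Vamp2, Syt1, Rims1, Syn1, Syp and Sv2a) encode core proteins of the synaptic vesicle and of the machinery that fuses it with the nerve terminal. They were taken by symbol from both tables of injected against uninjected tissue and are 8 of the 36265 genes with values. RNA came from substantia nigra of C57Bl/6J mice, collected 3 weeks after an adeno-associated virus had been injected on 1 side of the brain. Both viruses used the human synapsin promoter (hSYN1), which is active in neurons, so Syn1 is at once a vesicle gene and the mouse counterpart of the gene that lent its promoter. The first group is the 3 sides injected with AAV-hSYN1-miR-181 (1.65e10 vector genomes), and its control is the 3 uninjected sides of the same mice. The second group is the 4 sides injected with AAV-hSYN1-GFP (1e10 vector genomes), and its control is the 5 uninjected sides of GFP mice, of which mouse 5 has no injected library here. No mouse carried an engineered allele according to the labels. The vector, its dose, the sequencer and the library set all differed between the miR-181 and GFP mice and cannot be told apart.

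A neurotransmitter leaves a neuron when a vesicle fuses with the membrane of the nerve terminal. Vamp2 on the vesicle zips up with Stx1a and Snap25 on the terminal membrane into the SNARE complex, Syt1 senses the calcium that triggers fusion, and Rims1 organises the active zone where vesicles dock. Syn1 tethers vesicles in reserve pools, while Syp and Sv2a are membrane proteins of the vesicle itself. In the substantia nigra, transcripts of these genes come from dopamine neurons, GABA neurons and other local neurons. The RNA was extracted from bulk tissue, in which fewer neurons and less RNA per neuron cannot be told apart.

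The values of a library were in abundance units (TPM, the length-scaled share of a transcript in its library, divided by a size factor of the library) and summed to between 970505 and 1040288. Between 15022 and 15563 genes were at 1 unit or more, and the read depth of single libraries is unknown. The dopamine marker Th averaged 254 ± 89.1 units in injected and 304 ± 60.8 units in uninjected sides of miR-181 mice (SD, n = 3 each), and 525 ± 57.3 units in injected (n = 4) and 468 ± 102 units in uninjected sides of GFP mice (SD, n = 5). The serotonin marker Tph2 was at 22.1 units or more in each library of miR-181 mice and at 1.06 units or less in each library of GFP mice. Markers of neurons (Rbfox3, at 53.6 to 73.7 units), astrocytes (Gfap, at 203 to 1005 units), oligodendrocytes (Mog, at 249.9 to 311 units) and microglia (Aif1, at 10.6 to 71.7 units) were present in all 15 libraries. Pituitary hormone transcripts (Prl and Gh) took 0.227% of the injected and 4.70% of the uninjected library of GFP mouse 1. The part of these tissue differences in the results below was not tested, and values without GFP mouse 1 are given where they differ.

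The order of the 8 genes by level was much the same in the 4 groups. Snap25 was the most abundant, at 1418 ± 153 units in injected and 1706 ± 88.7 units in uninjected sides of miR-181 mice (SD, n = 3 each). It was followed by Syp (779 and 789 units, in the same order of groups), Vamp2 (583 and 566 units), Syt1 (440 and 412 units), Sv2a (406 and 409 units) and Syn1 (214 and 230 units). Rims1 (38.9 and 38.2 units) and Stx1a (25.1 and 27.5 units) were the lowest. Levels in TPM are per length, so these genes can be set side by side, and the ranges over mice of neighbours did not overlap except those of Syt1 and Sv2a. In GFP mice Sv2a (410 units in injected and 405 units in uninjected sides) stood above Syt1 (326 and 334 units), with ranges that overlapped in uninjected sides only, and the ranges of Rims1 (27.9 and 30.4 units) and Stx1a (28.4 and 27.5 units) overlapped in both groups. The 2 tables were normalised separately, so no test was made between mice of the 2 vectors at the level of abundance. Together the 8 genes took between 0.368% and 0.409% of the injected and between 0.420% and 0.425% of the uninjected libraries of miR-181 mice. Snap25 alone made up 34.1% to 43.2% of their summed level there, and only Snap25 and Syn1 had sides that did not overlap. In GFP mice the shares of the 8 genes overlapped, at 0.410% to 0.425% of injected and 0.389% to 0.447% of uninjected libraries.

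**Figure D1:**
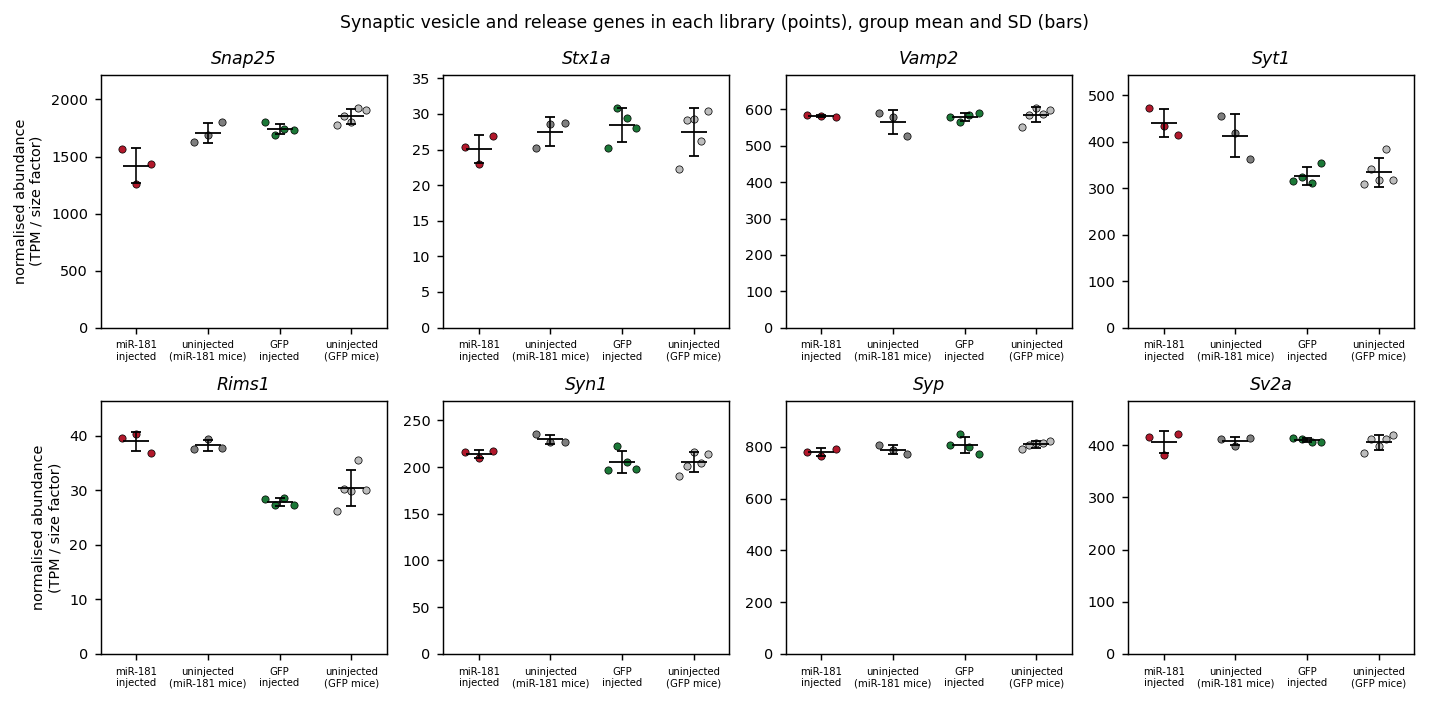
Normalised abundance (TPM divided by a size factor, linear axis from 0) of each of the 8 genes in each library, with points for single mice and bars for the group mean and SD, n = 3, 3, 4 and 5. Snap25 in injected sides of miR-181 mice (1259 to 1564 units) lies below their uninjected sides (1629 to 1803 units), while most other panels show overlapping groups.

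The first comparison, between the sides of miR-181 mice, asked whether the release machinery was altered where the microRNA vector had been delivered. No member passed the threshold of adjusted p 0.05 over all genes tested (limma with Benjamini-Hochberg adjustment, two-sided), against 5.88% of the 15453 genes tested. At an unadjusted p under 0.05 there were 2 members, Snap25 and Syn1, both lower in injected sides, beside 10.7% of genes tested that were lower at that level. The log2 differences of the 8 genes ran from -0.27 to 0.10 with a median of -0.014, beside a median of 0.0035 over all genes tested. For 2 of 8 members, again Snap25 and Syn1, all injected sides were below all uninjected sides, which was so for 14.5% of genes tested.

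The fitted log2 differences of the 3 SNARE genes ran from -0.27 to 0.04. None passed the threshold, and no test was made between the genes. Snap25 (chr2:136713453-136782428, plus strand, GRCm38, as are all positions given here), which supplies a pair of the helices of the complex, was at 1564, 1259 and 1431 units in injected sides of miR-181 mice 1, 2 and 3, against 1629, 1687 and 1803 units in their uninjected sides. The injected side was the lower one in each mouse, by little in mouse 1 (log2 -0.06) and by more in mice 2 and 3 (-0.42 and -0.33). The fitted log2 difference was -0.27 ± 0.09 (SE; 95% interval -0.47 to -0.07), a value 17.2% lower, with adjusted p = 0.121 in limma. Snap25 passed the threshold without the injected library of mouse 1 (-0.34, adjusted p = 0.0334), and was at -0.07 (adjusted p = 0.466) when each library was centred on neuron genes outside the vesicle cycle. That centring moved the median of all genes tested from 0.0035 to 0.21, and 14.5% of them were negative under it.

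Stx1a (chr5:135023482-135051100, plus strand), a syntaxin of the terminal membrane, was at 25.4, 22.9 and 27.0 units in injected sides of miR-181 mice, against 25.2, 28.6 and 28.7 units in uninjected sides. Its groups overlapped, because mouse 1 had nearly the same value on both sides, and the log2 difference of -0.13 ± 0.08 (SE) had an adjusted p of 0.407 (limma). Vamp2 (chr11:69088490-69092384, plus strand), the vesicle SNARE, was at 586, 582 and 581 units in injected sides, against 591, 578 and 528 units in uninjected sides. The injected sides differed from each other by less than 6 units and lay inside the range of the uninjected sides, with a log2 difference of 0.04 ± 0.05 (SE; 95% interval -0.08 to 0.17; adjusted p = 0.664 in limma).

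Syt1 (chr10:108497650-109010982, minus strand), the calcium sensor of fast release, was at 473, 433 and 414 units in injected sides of miR-181 mice, against 455, 419 and 363 units in uninjected sides. It was higher on the injected side in 3 of 3 mice, but the spread between mice was larger than the difference within them and the groups overlapped (log2 0.10 ± 0.09 SE, adjusted p = 0.574 in limma). Rims1 (chr1:22286251-22805994, minus strand), the active zone scaffold, was at 39.6, 40.3 and 36.9 units in injected sides, against 37.5, 39.3 and 37.8 units in uninjected sides. These groups overlapped and mouse 3 had the opposite sign to mice 1 and 2 (log2 0.02 ± 0.06 SE, adjusted p = 0.832 in limma).

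Among the vesicle proteins, Syn1 (chrX:20860511-20921004, minus strand) was at 216, 209 and 217 units in injected sides of miR-181 mice, against 235, 227 and 227 units in uninjected sides. Every injected side was below every uninjected side, by 6.74% in the fit (log2 -0.10 ± 0.04 SE; 95% interval -0.19 to -0.01), with adjusted p = 0.188 (limma). Syn1 was at 0.10 when libraries were centred on neuron genes, a scaling under which the median of all genes tested was 0.21. Syp (chrX:7638471-7653256, plus strand), the tetraspan protein long used as a marker of terminals, was at 781, 764 and 793 units in injected sides, against 805, 789 and 773 units in uninjected sides. Sv2a (chr3:96181151-96195521, plus strand), the vesicle protein that binds the antiseizure drug levetiracetam, was at 415, 381 and 422 units in injected sides, against 413, 399 and 414 units in uninjected sides. Neither gene had separate groups, and the log2 differences were -0.02 ± 0.04 for Syp (adjusted p = 0.838) and -0.01 ± 0.05 for Sv2a (adjusted p = 0.931; SE, limma).

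The same comparison in GFP mice gave the response of the same genes to a vector without the microRNA. No member passed adjusted p 0.05 in limma, against 1.35% of 15274 genes tested, and 1 member, Snap25, was lower at an unadjusted p under 0.05, beside 2.68% of genes tested. The log2 differences ran from -0.12 to 0.05, with a median of -0.0088 beside 0.0046 over all genes tested, and no member had groups that did not overlap (4.29% of genes tested did).

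Snap25 was again the member with the smallest p. It was at 1798, 1690.2, 1737 and 1734 units in injected sides of GFP mice 1 to 4, against 1776, 1858, 1800.3, 1929 and 1907 units in uninjected sides of mice 1 to 5. Injected sides were lower in mice 2, 3 and 4 and higher in mouse 1, and the groups overlapped through the libraries of mouse 1. The log2 difference was -0.09 ± 0.04 (SE; 95% interval -0.17 to -0.01), a value 6.14% lower, with adjusted p = 0.442 (limma). Stx1a was at 25.3, 30.9, 29.5 and 28.0 units in injected sides, against 22.2, 29.2, 29.3, 26.2 and 30.4 units in uninjected sides. It was higher on the injected side in 4 of 4 mice, by between 0.01 and 0.18 on the log2 scale, yet its fitted difference of 0.05 ± 0.10 (SE) had an adjusted p of 0.903 (limma). Vamp2 was at 580, 565, 584 and 590 units in injected sides, against 552, 586, 605, 587 and 599.7 units in uninjected sides, which is an overlap of nearly the whole range.

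Syt1 was at 316, 323, 312 and 354 units in injected sides of GFP mice, against 308, 341, 317, 385 and 318 units in uninjected sides. Rims1 was at 28.4, 27.2, 28.6 and 27.3 units in injected sides, against 26.2, 30.1, 29.9, 35.6 and 30.04 units in uninjected sides. Both sides of mouse 4 were the highest for Syt1, and the uninjected side of mouse 4 was the highest for Rims1. The log2 differences were -0.03 ± 0.07 for Syt1 (adjusted p = 0.915) and -0.12 ± 0.08 for Rims1 (adjusted p = 0.694; SE, limma).

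Syn1, which shares its promoter's origin with both vectors, was at 197, 222, 205 and 198 units in injected sides of GFP mice, against 190.2, 201, 216, 204 and 214 units in uninjected sides. Syp was at 806, 850.0, 800.2 and 773 units in injected sides, against 790.2, 805, 813, 816 and 821 units in uninjected sides. Sv2a was at 414, 412, 406 and 407 units in injected sides, against 384, 413, 398 and 412 units in uninjected sides of mice 1 to 4 and 419.9 units in that of mouse 5. For each of the 3 vesicle genes the injected values overlapped the uninjected ones, and the uninjected side of mouse 1 was the lowest of the 9 libraries for 6 of the 8 members, all but Snap25 and Syp. The log2 differences were 0.0031 ± 0.05 for Syn1, -0.0038 ± 0.03 for Syp and 0.02 ± 0.03 for Sv2a (SE), with adjusted p of 0.992, 0.985 and 0.911 (limma). Without both libraries of GFP mouse 1, Rims1 was at log2 -0.175 (adjusted p = 0.504) and Vamp2 at -0.04 (adjusted p = 0.797), against -0.12 and -0.01 with them, and no member passed.

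Whether a member moved differently with the 2 vectors was tested on the log2 change of each mouse, 3 miR-181 mice against 4 GFP mice. No member passed adjusted p 0.05 in limma, against 0.0337% of 14824 genes tested, and 2 members had an unadjusted p under 0.05 beside 15.3% of genes tested. Stx1a was 1 of them, with a change 0.22 ± 0.10 (SE) lower in miR-181 mice (log2 -0.22, adjusted p = 0.326 in limma). The other was Syt1, with a change 0.14 ± 0.06 (SE) higher in miR-181 mice (adjusted p = 0.298 in limma). The change of Snap25 was 0.19 lower in miR-181 mice (log2 -0.19 ± 0.09 SE; 95% interval -0.40 to 0.02; adjusted p = 0.368), and that of Syn1 0.12 lower (log2 -0.12 ± 0.06 SE; adjusted p = 0.409). Intervals of the other members were -0.12 to 0.40 for Rims1, -0.08 to 0.18 for Vamp2, -0.16 to 0.08 for Sv2a and -0.14 to 0.10 for Syp.

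**Figure D2:**
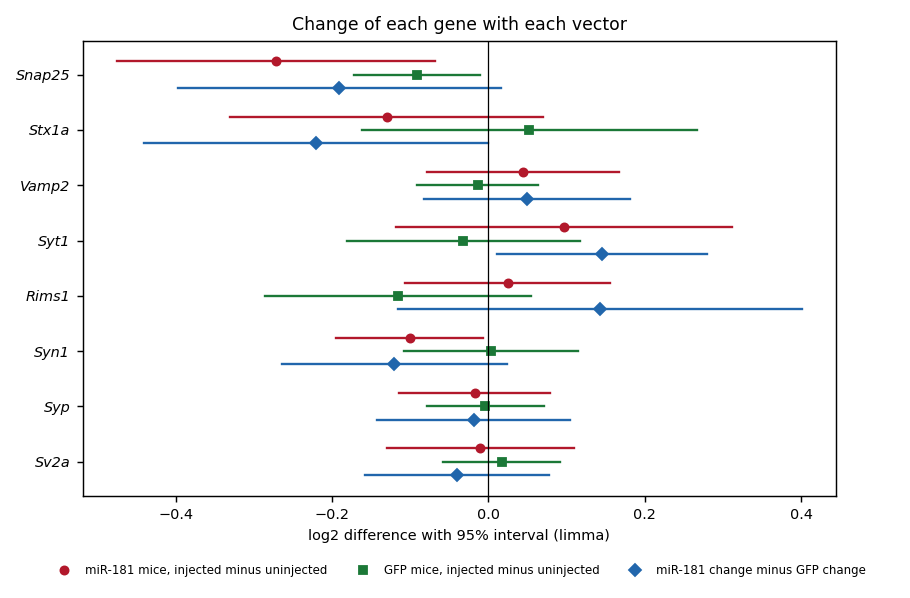
Log2 difference of each gene with its 95% interval from limma, for the injected minus the uninjected side in miR-181 and in GFP mice, and for the difference between their changes. Snap25 has the lowest value in miR-181 mice (-0.27, interval -0.47 to -0.07), and most other intervals include 0.

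Markers of some other cells moved with injection in the same libraries. The 6 oligodendrocyte and 4 endothelium genes had no calls, and their sums overlapped between sides in both sets of mice. In GFP mice all 6 oligodendrocyte genes had a positive difference, and 3 had an unadjusted p under 0.05 (limma), beside 9.52% of all genes tested. In miR-181 mice 2 were positive and 4 negative. The miR-181 change minus the GFP change was negative for all 6 (50% of all genes tested were), and none passed. No GABA neuron gene passed either. These 4 genes summed to between 900 and 1033 units in injected sides of miR-181 mice, against 1095 to 1169 units in uninjected sides, and all 4 differences were negative. In GFP mice their sums overlapped (1083 to 1153 and 1053 to 1185 units). The 6 microglia genes summed to between 315 and 452 units in injected sides of miR-181 mice, against 179 to 198 units in uninjected sides. There 5 of the 6 rose past adjusted p 0.05 (limma), as did 4.39% of all genes tested. All 4 T cell genes rose in miR-181 mice, with sums of 30.3 to 86.3 units in injected sides, against 9.53 to 15.04 units in uninjected sides. In GFP mice, microglia genes summed to between 213 and 253 units in injected sides, against 131 to 172 units in uninjected sides. There 4 of the 6 rose past the threshold, as did 1.34% of all genes tested. T cell genes summed to between 19.4 and 23.3 units in injected sides of GFP mice, against 6.14 to 17.2 units in uninjected sides, and the 1 of them that was tested there did not pass. The 6 astrocyte genes summed to between 1704 and 2038 units in injected sides of miR-181 mice, against 1346 to 1478 units in uninjected sides, with 2 that rose. They did not move as a set: 4 had a positive and 2 a negative difference. Of the 6, 1 was lower at an unadjusted p under 0.05 (limma), beside 10.7% of genes tested. In GFP mice the 6 astrocyte genes summed to between 1245 and 1489 units in injected sides, against 1042 to 1261 units in uninjected sides. There 1 rose, the astrocyte filament gene Gfap, and its call lay near the threshold. It was lost without both libraries of GFP mouse 1 (log2 0.95, against 0.83 with them, adjusted p = 0.0548 in limma). It was also lost with quantile normalisation (adjusted p = 0.0521) and kept with median centring (adjusted p = 0.0497). None of the 8 dopamine neuron genes passed in either set of mice. All 8 had a negative difference in miR-181 mice (49.2% of all genes tested did), with sums of 989 to 1739 units in injected and 1272 to 1685 units in uninjected sides. By mouse, the sum was lower on the injected side in mouse 2 only (989 against 1685 units). It was higher in mouse 1 (1739 against 1685 units) and in mouse 3 (1323 against 1272 units). In GFP mice all 8 had a positive difference, where 48.2% of all genes tested were negative (2004 to 2391 and 1559 to 2479.9 units). The injected side had the higher sum in GFP mice 3 and 4 and the lower in GFP mice 1 and 2. None of the microglia or neuron genes was at 0 in any library, and of the T cell genes Cd3e was at 0 in 3 uninjected libraries of GFP mice. The 16 neuron genes outside the vesicle cycle summed to between 4833 and 5407 units in injected sides of miR-181 mice, against 5676 to 5850.1 units in uninjected sides. Of these 16, 15 had a negative log2 difference, with a median of -0.15, and Ina, a neuronal intermediate filament, was the 1 that fell past the threshold (log2 -0.65, adjusted p = 0.0243). In GFP mice the same 16 genes summed to between 5605 and 5949 units in injected sides, against 5541 to 5978 units in uninjected sides, with a median log2 difference of 0.0064. The marker calls in miR-181 mice depended on single libraries. When any 1 uninjected library was left out, Ina stayed at log2 -0.69 to -0.64 and lost its call (adjusted p between 0.0858 and 0.110, limma). The T cell and astrocyte calls were lost in the same fits (adjusted p between 0.0678 and 0.133). Of the microglia genes, only Aif1 passed there, without uninjected mouse 1 or 3 (adjusted p = 0.0338 and 0.0410). The part of these marker shifts in the values of the release genes was not tested.

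Set against those neuron genes, the 8 members together stood at 75.2 ± 1.598% of the neuron sum in injected and 72.2 ± 1.41% in uninjected sides of miR-181 mice (SD, n = 3 each). In GFP mice they stood at 72.1 ± 1.95% in injected (n = 4) and 74.7 ± 2.43% in uninjected sides (SD, n = 5). In miR-181 mice Syp took 15.03 ± 0.70% of the neuron sum in injected against 13.6 ± 0.48% in uninjected sides, and Vamp2 11.2 ± 0.69% against 9.78 ± 0.68%, while Snap25 took 27.3 ± 1.49% against 29.5 ± 1.24% (SD, n = 3 each). The injected sides were above the uninjected sides without overlap for 4 of 8 members (Syp, Vamp2, Sv2a and Rims1), as they were for 36.6% of all genes tested, beside a neuron sum that was itself lower on injected sides. The ranges of Snap25 (26.1% to 28.9% in injected against 28.7% to 30.9% in uninjected sides) overlapped. When libraries were centred on neuron genes, Syp was at log2 0.19 and Vamp2 at 0.25, near the median of 0.21 over all genes tested. Within the 8 genes, Snap25 made up 34.1% to 38.1% of their summed level in injected sides of miR-181 mice, against 38.9% to 43.2% in uninjected sides. In GFP mice its share was 41.0% to 43.2% in injected, against 42.8% to 43.9% in uninjected sides.

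The wider machinery was followed with 92 other genes in 7 lists by role, of which 91 were tested in miR-181 mice. In injected sides 4 of them fell (4.40% of 91, against 1.49% of all genes tested) and 1 rose (1.10%, against 4.39%), while 66 of 91 had a negative difference (49.2% of all genes tested did). Their median log2 difference was -0.10. Centring on neuron genes put the median of all genes tested at 0.21 and that of the 91 genes at 0.11, with 2 that fell (2.20%, against 0.44% of all genes tested) and 4 that rose (4.40%, against 8.79%). The sign of the lists' median thus turned with this scaling, while their median lay below that of all genes tested under both scalings. In GFP mice 0 of 90 passed the threshold and 6 had an unadjusted p under 0.05 (6.67%, against 9.52% of all genes tested), with a median log2 difference of -0.03. In the comparison of changes 0 of 89 passed and 22 had an unadjusted p under 0.05 (24.7%, against 15.3% of all genes tested; limma).

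Each role held few calls. Of the 8 other SNARE genes, Vamp1 fell. None of the 17 genes of SNARE assembly, priming and disassembly passed, and Cplx1, a complexin that clamps the complex, was at log2 -0.36 (adjusted p = 0.164, limma). None of the 12 other synaptotagmins passed, though all 12 had a negative difference (49.2% of all genes tested did). Among them was Syt2, a fast calcium sensor like Syt1, at -0.29 (adjusted p = 0.247). In GFP mice 9 of the 12 were negative. In miR-181 mice all 12 stayed negative with quantile normalisation and with median centring (62.2% and 64% of all genes tested were). After centring on neuron genes 4 of the 12 were negative (14.5% of all genes tested were). Of the 16 other vesicle proteins, Sv2b and Rph3a fell, whereas Syn2 was at -0.03 (adjusted p = 0.748) and Sv2c at -0.24 (adjusted p = 0.422). Of the 16 active zone and calcium channel genes, Ppfia4 rose, and of the 16 endocytosis genes, Sh3gl2 fell. None of the 6 transmitter transporters passed: Slc17a6, which loads glutamate, was at 0.02 (adjusted p = 0.801) and Slc32a1, which loads GABA and glycine, at -0.23 (adjusted p = 0.0742).

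The 5 genes that passed were as follows. Vamp1, the other synaptobrevin, was at 394, 292 and 363 units in injected sides of miR-181 mice, against 469, 514 and 574 units in uninjected sides (log2 -0.58 ± 0.12 SE, adjusted p = 0.0435 in limma). Sv2b, a paralog of Sv2a, was at 35.98, 26.0 and 31.3 units in injected sides, against 44.5, 48.7 and 43.4 units in uninjected sides (-0.55 ± 0.12 SE, adjusted p = 0.0433 in limma). In both genes mouse 2 had the lowest injected side, and all injected sides were below all uninjected sides.

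Rph3a encodes rabphilin, which binds the vesicle GTPase Rab3 and Snap25. It was at 208, 180.5 and 209 units in injected sides of miR-181 mice, against 273, 276 and 275 units in uninjected sides (-0.46 ± 0.06 SE, adjusted p = 0.0127 in limma). The uninjected sides agreed to within 3 units, and all injected sides were lower. Sh3gl2, endophilin A1 of vesicle uptake, was at 175, 156 and 176 units in injected sides, against 199, 202 and 213 units in uninjected sides (-0.28 ± 0.06 SE, adjusted p = 0.0458 in limma). Ppfia4, a liprin-alpha of the active zone, was at 55.4, 67.2 and 62.9 units in injected sides, against 45.3, 43.9 and 43.9 units in uninjected sides (0.47 ± 0.07 SE, adjusted p = 0.0194 in limma). Sh3gl2 and Ppfia4 likewise had groups that did not overlap.

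In GFP mice the log2 differences of these genes were -0.04 for Vamp1, -0.10 for Sv2b, 0.03 for Rph3a, -0.06 for Sh3gl2 and 0.21 for Ppfia4, with adjusted p between 0.304 and 0.873 (limma). The direct test of the difference in change between miR-181 and GFP mice passed for none of the 5 (adjusted p between 0.0970 and 0.346). With the mouse as a replicate block, Rph3a and Ppfia4 passed (adjusted p = 0.0272 and 0.0408), and Vamp1, Sv2b and Sh3gl2 did not (0.0581, 0.0727 and 0.0524). All 5 calls were lost when any 1 uninjected library was left out, with adjusted p between 0.0622 for Rph3a and 0.166 for Sv2b. Their log2 differences in those fits of fewer libraries were close to the full ones, at -0.65 to -0.50 for Vamp1, -0.59 to -0.50 for Sv2b, -0.47 to -0.46 for Rph3a, -0.30 to -0.25 for Sh3gl2 and 0.46 to 0.48 for Ppfia4. Vamp1, Sv2b and Sh3gl2 also lost theirs without the injected library of mouse 2 or of mouse 3, and Ppfia4 without that of mouse 3. Rph3a alone passed both with no filter on low values (adjusted p = 0.0380) and with no intensity trend (0.0421). When libraries were centred on neuron genes, Vamp1 was at -0.37 (adjusted p = 0.0445), Rph3a at -0.26 (0.0314) and Ppfia4 at 0.675 (0.0220), while Sv2b at -0.35 (0.0510) and Sh3gl2 at -0.07 (0.325) did not pass. All genes tested had a median of 0.21 under that centring.

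The share of a member within its gene family differed between sides in some families and overlapped in others. Vamp2 made up 62.6 ± 3.55% of Vamp1 and Vamp2 together in injected sides and 52.2 ± 3.96% in uninjected sides (SD, n = 3 each), with ranges of 59.8% to 66.6% and 47.9% to 55.8%. In GFP mice its share was 52.8 ± 1.36% in injected (n = 4) and 52.2 ± 0.99% in uninjected sides (SD, n = 5). Sv2a made up 82.8 ± 2.42% of the 3 Sv2 genes in injected and 79.0 ± 0.91% in uninjected sides of miR-181 mice (SD, n = 3 each), and 80.7 ± 0.14% in injected and 80.4 ± 1.20% in uninjected sides of GFP mice. For Syt1 among Syt1 and Syt2 the shares overlapped in both sets of mice, with means of 75.1% in injected and 69.7% in uninjected sides of miR-181 mice, and 67.6% in injected and 68.2% in uninjected sides of GFP mice. In miR-181 mice Rims1 made up 46.5% to 46.6% of Rims1 and Rims2 in injected sides, against 47.04% to 49.3% in uninjected sides. The shares overlapped for Syn1 among the synapsins (50.9 ± 0.52% in injected and 51.7 ± 1.29% in uninjected sides), for Snap25 with Snap23, Snap29 and Snap47 (76.5 ± 0.91% and 77.9 ± 0.85%), and for Syp with Synpr (96.7 ± 0.45% and 96.3 ± 0.17%; SD, n = 3 each). The higher share of Vamp2 went with the fall of Vamp1 given above. That of Sv2a went with the fall of Sv2b and with Sv2c, which was at log2 -0.24 and did not pass. The shares of Rims1 did not overlap in miR-181 mice either. In GFP mice they did (46.7% to 49.9% in injected and 46.9% to 49.7% in uninjected sides). None of these shares adds a separate result. With 3 mice on each side an exact permutation test cannot go below 0.10, so these shares were left as descriptions.

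**Figure D3:**
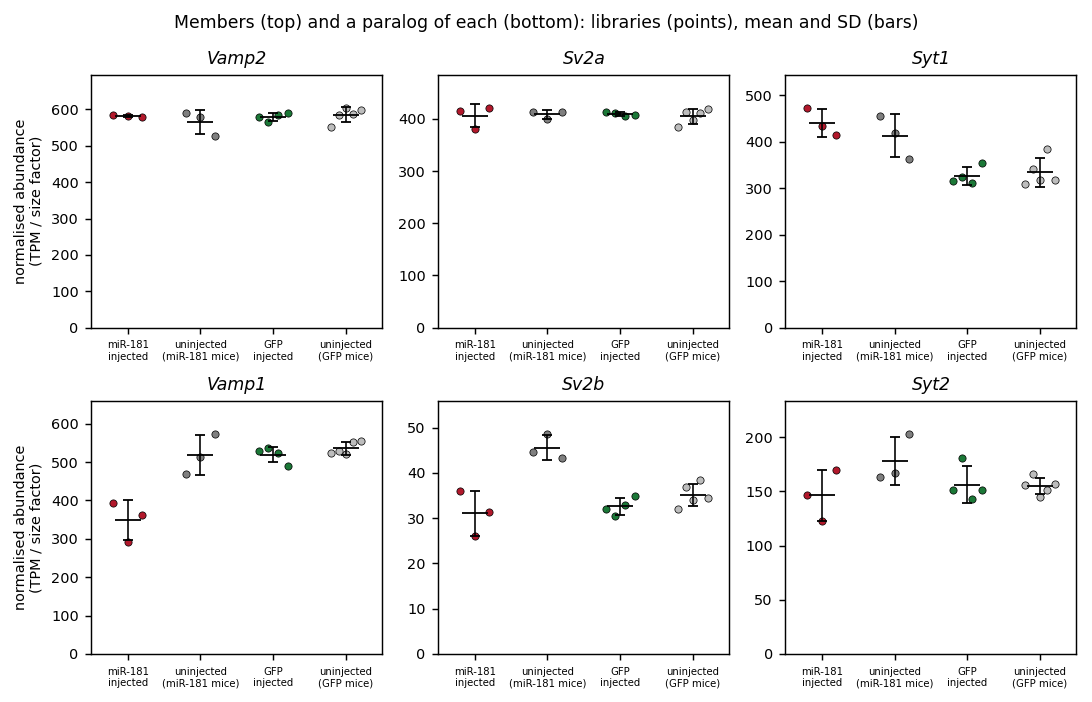
Normalised abundance (TPM divided by a size factor, linear axis from 0) of Vamp2, Sv2a and Syt1 above and their paralogs Vamp1, Sv2b and Syt2 below, with points for single libraries and bars for the group mean and SD, n = 3, 3, 4 and 5. Vamp1 in injected sides of miR-181 mice (292 to 394 units) lies below all other groups, whereas Vamp2 holds near 580 units in each group.

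The miR-181 family shares its seed, the bases 2 to 8 that pair with target transcripts, so the seed is shown here in capitals in the 4 mature mouse sequences (RefSeq, GRCm38.p6). The labels do not say which of them the vector carried.
mmu-miR-181a-5p: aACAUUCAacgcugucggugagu
mmu-miR-181b-5p: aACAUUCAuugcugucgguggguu
mmu-miR-181c-5p: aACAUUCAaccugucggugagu
mmu-miR-181d-5p: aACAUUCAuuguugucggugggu

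A match was taken as the letters TGAATGT or GAATGTA on the transcript's strand in the longest annotated 3′ UTR; where both overlap they form TGAATGTA and count once. Of the 8 members, only Sv2a held one (12.5% of 8), against 3406 of 14283 tested genes with an annotated 3′ UTR (23.8%). The 3′ UTRs searched were 1033 bases long in Syn1, 1285 in Snap25 and up to 2890 in Syt1, beside a median of 1198 over all those genes. No match means only that these letters were not in the UTR searched. The sites of Sv2a and of the 3 called genes that held one are shown with the match in capitals: Sv2a, whose level overlapped between sides, holds the same letters, TGAATGT, as Vamp1 and Sv2b, which fell.
Sv2a, chr3:96195325-96195348, plus strand: ccagtgtgTGAATGTgcgaccctt
Vamp1, chr6:125219949-125219972, plus strand: gagagaccTGAATGTctggtgatg
Sv2b, chr7:75116264-75116287, minus strand: ttggaactTGAATGTggaaagggg
Sv2b, chr7:75115707-75115730, minus strand: aaatatacaGAATGTAttaatgct
Rph3a, chr5:120941077-120941100, minus strand: aatccagagGAATGTAcacctgag

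Sh3gl2 and Ppfia4 held no match, nor did Snap25 and Syn1, the members with the lowest unadjusted p in miR-181 mice. Over the role lists, 27 of 91 genes held a match (29.7%, against 23.8% of all tested genes with an annotated 3′ UTR). The length of the UTR was not matched. It was 2512 bases in Vamp1, 2701 in Sv2b, 1669 in Rph3a, 2385 in Sh3gl2 and 2098 in Ppfia4, beside the median of 1198. Those 27 genes had a median log2 difference of -0.14 in miR-181 mice, with 3 that fell, and the other 64 had a median of -0.06, with 1 that fell and 1 that rose. Of all genes tested, which were not split by match, 1.49% fell and 4.39% rose. In GFP mice the medians were -0.05 for the 27 genes with a match and -0.02 for the 63 without. These medians and counts describe the lists and were not tested.

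Across the 15 libraries, each gene centred on the mean of its own table, the 8 members did not vary as a block. The Pearson correlations of their 28 pairs ran from -0.25 for Snap25 and Vamp2 to 0.77 for Syn1 and Syp, with a median of 0.16. The mean of the members was lowest in the uninjected side of GFP mouse 1 (log2 -0.11 from its table's mean), the library with the most pituitary transcripts, and in the injected side of miR-181 mouse 2 (-0.07), the lowest of the 6 libraries of miR-181 mice for 5 of the 8 members. The genes most like that mean among 11767 genes, by Pearson correlation over the 15 libraries, were Dnajc6 (0.923), D230025D16Rik (0.899), Rapgef2 (0.898), Cnksr2 (0.881) and Fam133b (0.866). The libraries of a set share a preparation and a sequencer, so these correlations are descriptions.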

How the data were processed

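Stranded poly(A) RNA libraries were read as pairs of 75 bases (miR-181 mice, HiSeq) or 50 bases (GFP mice, NovaSeq), per the labels' protocols. Transcript quantification used kallisto 0.43.1 and GRCm38, and sleuth 0.30.0 followed, per the submitters' processing notes. The deposited values were taken as a signal, TPM divided by a size factor, which is inferred from sums that differ between libraries; the authors' steps from transcripts to genes are not given in the sources used here. The deposited tables each had 56305 rows, 36660 with values, of which 395 repeated the symbol and all values of another row and were left out; 35859 of the remaining 36265 identifiers were in GENCODE M21. Rims1 has 2 identifiers with identical values, of which 1 was kept. The planned test assumed TPM, and the same test was used here.

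Values were tested as log2(value + 0.5) in R 4.3.3 with limma 3.58.1, an intensity trend, a mean of at least 1 unit over the libraries and Benjamini-Hochberg adjustment at 0.05; low genes change by more than folds on this scale show. The sides were compared within miR-181 mice and within GFP mice, and then the per-mouse changes of 3 miR-181 mice against 4 GFP mice. Depth is unknown, so values carry no counting intervals. Replicates are separate mice per the labels. Both sides of a mouse are the same animal, so mouse numbers pair the libraries; deviations from group means correlated at 0.183, 0.140 and 0.257 within miR-181 mice and at 0.192, 0.0947, 0.0177 and 0.122 within GFP mice.

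All members were named. From the role lists, genes past the threshold were named, up to 4 per list and direction, with a few set names (among them Syn2, Syt2, Sv2c, Slc17a6, Slc32a1 and Cplx1); values of some set names are not reported here. The 5 genes most like the members' mean were taken among genes with a mean of at least 5 units. Members and lists were chosen with earlier results of these data known. Ina, T cell and pituitary genes are named as cell markers. Seed matches were searched in GENCODE M21 UTRs. The fits were tested on simulated data. Alternatives were pseudocounts, filters, scalings, no trend, a replicate block and left-out libraries.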

Additional observations from a re-analysis of the deposited data

How the results depend on the processing

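No member passed adjusted p 0.05 in any of the 3 comparisons under any setting run, except Snap25 in miR-181 mice without the injected library of mouse 1, so that leaving out single libraries gave 0 to 1 members. Under the replicate block (paired fit) 0 members passed in miR-181 and in GFP mice, and 1 sign turned, that of Syp in GFP mice (0.0014). Leaving out both libraries of miR-181 mouse 2 or of GFP mouse 1, chosen after seeing the data, also gave 0 members; the first turned Sv2a in miR-181 mice (0.018), the second turned Syn1 (-0.0038) and Sv2a (-0.0072) in GFP mice. Signs of small differences depended on scaling. Centring on neuron genes turned Syn1 (0.10), Syp (0.19), Stx1a (0.075) and Sv2a (0.19) in miR-181 mice, Syn1 (-0.0021) in GFP mice, and Syn1 (0.091), Syp (0.19), Snap25 (0.021) and Sv2a (0.17) in the difference of changes. It put the median of all genes tested at 0.21 in miR-181 mice, -0.00058 in GFP mice and 0.21 in the difference of changes. Quantile normalisation turned Vamp2 in miR-181 mice (-0.038) and Syn1 (-0.035) and Sv2a (-0.029) in GFP mice. Median centring turned Vamp2 (-0.021) and Rims1 (-0.040) in miR-181 mice and Syn1 (-0.014) and Sv2a (-0.00043) in GFP mice. Without single libraries, values ran from -0.0046 to 0.077 for Vamp2, -0.038 to 0.034 for Sv2a and -0.00073 to 0.063 for Rims1 in miR-181 mice. In GFP mice they ran from -0.034 to 0.023 for Syn1, -0.029 to 0.017 for Syp, -0.020 to 0.11 for Stx1a, -0.072 to 0.020 for Syt1 and -0.0021 to 0.030 for Sv2a. In the difference they ran from -0.046 to 0.0064 for Syp. The cause was not tested. Over all genes in miR-181 mice, 908 calls (74.7% higher) became 1102 with median centring (57.5% higher), 1427 with neuron centring (95.2% higher), 315 without the filter on low values and 449 without the trend; without single libraries they ran from 117 (without uninjected mouse 2) to 1924 (without injected mouse 1), and were 107 without mouse 2. In GFP mice 206 calls became 135 with the replicate block and 136 at a mean of at least 5, and ran from 108 to 255 without single libraries. The 5 calls of the difference ran from 1 to 313 without single mice, the highest without miR-181 mouse 1.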
